A study of Homo sapiens with 9 samples.

Results

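The G1 cyclins, their kinases, RB1 and E2F1 were followed in poly(A)+ RNA-seq of TE13 cells, an established line of esophageal squamous cell carcinoma (ESCC). The 10 genes were taken from the deposited table of 60605 genes by symbol: the D-type cyclins CCND1, CCND2 and CCND3, the E-type cyclins CCNE1 and CCNE2, the kinases CDK4 and CDK6, the inhibitor locus CDKN2A, RB1 and E2F1. Each symbol has a single row. The 9 libraries fall into 3 conditions of 3 libraries each: cells given a control siRNA, cells given siRNA.1 against PARylator (the long noncoding RNA LINC00885) and cells given siRNA.2 against a different stretch of the same RNA. No agent or allele other than the siRNAs is named for these libraries, and all come from the same cell line, so the comparisons concern a single ESCC line. The study asked how loss of PARylator affects ESCC cells.

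D-type cyclins bind CDK4 and CDK6 and start the phosphorylation of RB1, the retinoblastoma protein, which otherwise holds E2F transcription factors in check. Freed E2F1 drives transcription of genes for DNA replication and of the E-type cyclins, which with CDK2 complete the passage from G1 into S phase. CDKN2A encodes p16INK4A, an inhibitor of CDK4 and CDK6, and the gene is often lost in squamous carcinomas of the esophagus, where CCND1 is often amplified.

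Library totals on genes ran from 15337917 to 17899074 (control siRNA), from 15374616 to 17762752 (siRNA.1) and from 19213164 to 22559998 (siRNA.2). The mitochondrial share of counts was 7.46% to 7.66%, 4.99% to 5.06% and 5.54% to 5.56%, in that order, and its part in the results was not tested beyond a fit without mitochondrial genes, which changed no call on the 10 genes. All 8 squamous epithelial markers (KRT5, KRT14, KRT6A, KRT17, TP63, DSG3, EPCAM and CDH1) had means above 1 FPKM in each condition, and their summed FPKM was 650.0 to 662, 573 to 600.0 and 563 to 582 in the same order. Of the 8, 3 rose (KRT6A, DSG3 and EPCAM) and 4 fell (KRT5, KRT17, TP63 and CDH1) with each siRNA, KRT5 the most, from 142 to 40.0 and 55.8 FPKM. Of the 4 blood markers the summed FPKM was 0.12 to 0.54, 2.74 to 3.36 and 2.9 to 3.48. LYZ held nearly all of it, at 0.317 ± 0.219, 2.79 ± 0.286 and 3.08 ± 0.274 FPKM (mean ± SD, n = 3). PTPRC, far lower at 0.0333, 0.153 and 0.147 FPKM, was also higher with both siRNAs (adjusted p = 0.000256 and 0.000265, edgeR). The B cell marker MS4A1 was at 0 counts in every library. Summed FPKM of the 3 fibroblast markers was 1.99 to 2.18 in control libraries, 1.29 to 1.55 and 1.32 to 1.64 with the siRNAs, and that of the 2 endothelial markers 0.35 to 0.80, 0.15 to 0.24 and 0.16 to 0.27. COL1A1 and VWF held most of these sums and were lower with both siRNAs. The part of these marker shifts in the results was not tested. In bulk RNA, a changed share of cells in a state and a changed RNA level per cell cannot be told apart. By flow cytometry, the paper reports that TE13 cells accumulated in S phase after PARylator knockdown. The part of that shift in the RNA values here was not tested.

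The targeted RNA was close to its limit of counting. Control libraries held 6, 7 and 12 counts of LINC00885, siRNA.1 libraries 4, 5 and 2, and siRNA.2 libraries 2, 0 and 4. Its mean FPKM was 0.217, 0.0967 and 0.0400. In edgeR siRNA.1 gave a log2 fold change of -1.21 (adjusted p = 0.376) and siRNA.2 gave -2.33 (adjusted p = 0.0659), so neither difference passed the threshold of 0.05 used throughout. The paper reports the knockdown by qPCR in ESCC cells, TE13 among them, a measurement separate from these counts.

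The upstream sequences of the 3 members that were higher with both siRNAs are shown because the members act in, or are themselves read by, the E2F circuit. They are the 250 bases before the annotated start, from RefSeq on GRCh38.p14, written 5′ to 3′ on the gene's own strand. E2F1 lies at chr20:33686386-33686635 (minus strand), CDK4 at chr12:57752311-57752560 (minus strand, from a start inside the longer span the table gives the gene) and CDK6 at chr7:92836574-92836823 (minus strand). Capitals mark the E2F motif TTTGGCGC in E2F1 and CACGTG, the E-box letters that MYC and related factors read, in CDK4.
E2F1: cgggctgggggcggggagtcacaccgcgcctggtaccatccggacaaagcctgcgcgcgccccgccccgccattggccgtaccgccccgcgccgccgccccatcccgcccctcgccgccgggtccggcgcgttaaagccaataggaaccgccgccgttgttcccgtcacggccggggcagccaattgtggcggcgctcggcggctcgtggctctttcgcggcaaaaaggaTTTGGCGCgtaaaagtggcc
CDK4: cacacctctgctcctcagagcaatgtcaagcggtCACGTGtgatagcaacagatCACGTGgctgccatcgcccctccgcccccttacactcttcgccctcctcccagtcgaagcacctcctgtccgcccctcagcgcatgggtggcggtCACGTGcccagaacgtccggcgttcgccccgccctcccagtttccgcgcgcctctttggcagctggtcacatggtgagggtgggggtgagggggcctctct
CDK6: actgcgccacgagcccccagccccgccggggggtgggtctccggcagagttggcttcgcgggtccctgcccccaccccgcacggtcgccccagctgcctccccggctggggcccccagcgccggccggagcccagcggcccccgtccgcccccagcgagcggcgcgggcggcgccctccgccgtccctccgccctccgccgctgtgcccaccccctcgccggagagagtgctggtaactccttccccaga
TTTGGCGC begins at position -20 of the E2F1 window, counted back from the start, so the form without its last letter, searched as well, is also met there. Of 35116 RefSeq promoters with windows of the same length, 0.55% held this motif on either strand and 1.59% the form without the last letter. The related motif TTTCCCGC, in none of the 3 windows, was held by 1.39% and its form without the last letter by 3.66%. CACGTG begins at positions -216, -196 and -101 of the CDK4 window and was held by 6.34% of promoters. It was searched after the sequences had been seen. None of these motifs was found in the CDK6 window. A match of letters is a description of the window and was not tied to binding in these cells. No entry was matched for CCND1, CCND2 or CCNE2.

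In control cells the CCND1 and CDK4 transcripts dominated the group. On the FPKM scale, per kilobase of the deposited exonic length, CCND1 stood at 113 ± 3.58 (mean ± SD, n = 3) and CDK4 at 53.4 ± 3.79. That length may differ from the length of the transcripts present, so the order of close members is approximate. RB1 followed at 21.1 ± 0.63, CDK6 at 16.5 ± 0.814, E2F1 at 14.0 ± 0.815, CCND2 at 11.8 ± 0.291 and CCND3 at 10.7 ± 1.23. The E-type cyclins were lowest among the detected members, with CCNE1 at 4.29 ± 0.155 and CCNE2 at 2.30 ± 0.488. Every neighbouring pair in this order had separate library ranges except CCND2 and CCND3, which overlapped. CCND1 exceeded 99.0% of the 28065 genes with a value above 0 in control cells, and CCNE2 exceeded 64.8%.

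**Figure D1:**
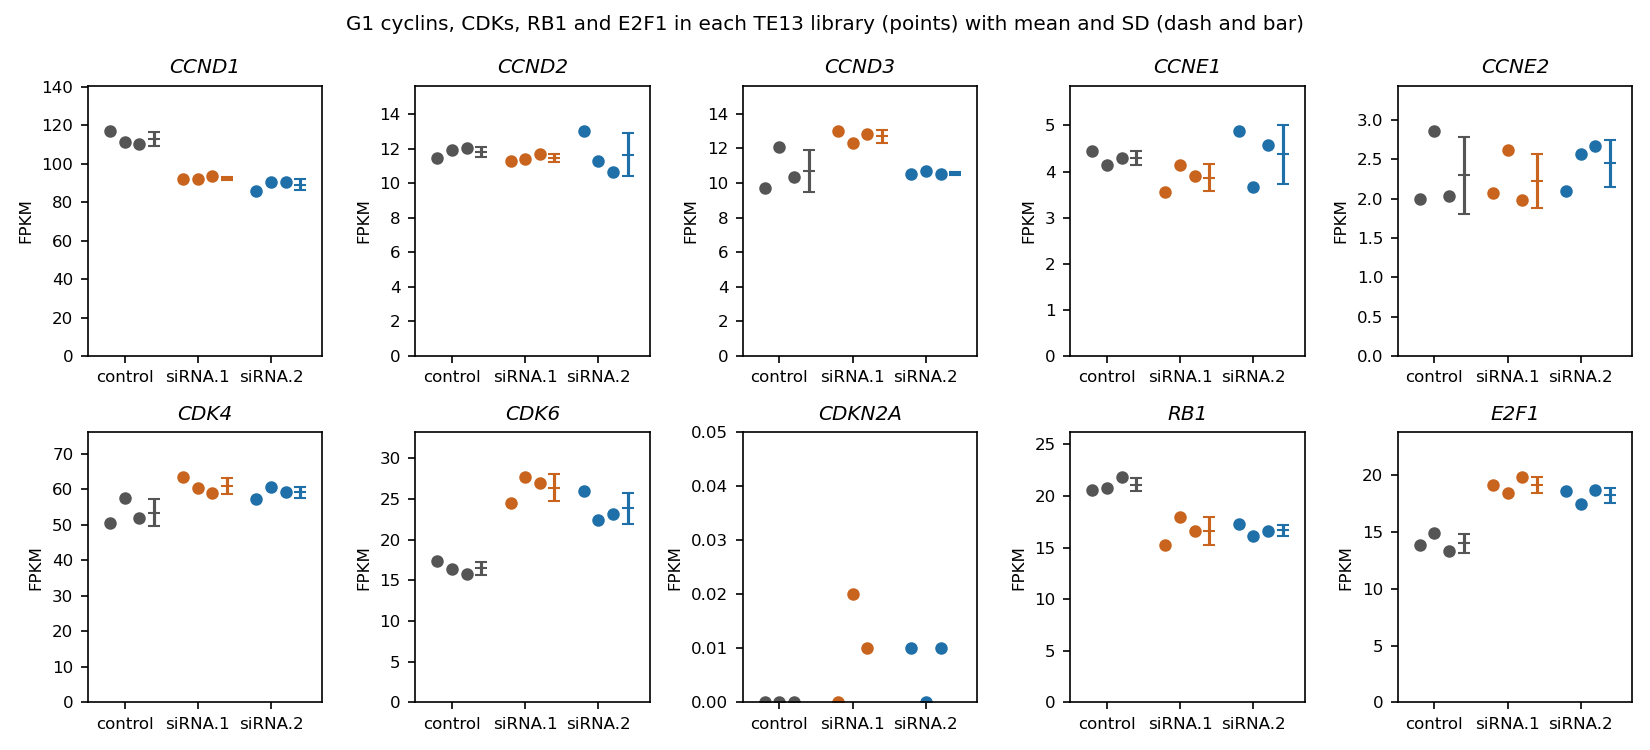
FPKM (y axis, from 0, a separate scale for each gene) of the 10 G1 genes in each TE13 library (points) for control siRNA, siRNA.1 and siRNA.2, with the mean (dash) and SD (bar, n = 3) beside the points except for CDKN2A. The siRNA libraries of CCND1 and RB1 lie below all control libraries, those of CDK6 and E2F1 lie above them, and CDKN2A has at most 1 count in any library.

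Of the 9 members that passed the filter of a mean of at least 0.1 FPKM, 6 were called with siRNA.1 (4 higher, 2 lower) and 5 with siRNA.2 (3 higher, 2 lower). CDK4, CDK6 and E2F1 were higher and CCND1 and RB1 were lower with both siRNAs, and CCND3 was higher with siRNA.1. CCND2, CCNE1 and CCNE2 were not called with either. The background of such calls was high: of 21397 genes tested, 30.2% were called with siRNA.1 (15.0% higher, 15.2% lower) and 30.9% with siRNA.2 (15.8% higher, 15.1% lower), and 21.2% were called in the same direction with both. The members are abundant transcripts. Among the 9868 genes whose mean count was at least 183, that of the least counted tested member, 50.9% were called for siRNA.1, where 66.7% of the members were, and 52.1% for siRNA.2, where 55.6% of the members were. At that depth the share of members called was thus close to the share of genes called, and the direction and size of each member carry the description. Both comparisons share the 3 control libraries.

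CCND1, which encodes cyclin D1 and is the most abundant cyclin here, fell with both siRNAs. Its FPKM was 117, 111 and 111 in the control libraries, then 92.1, 91.9 and 93.5 (siRNA.1), and 85.8, 90.7 and 90.8 (siRNA.2). All siRNA libraries lay below all control libraries. The log2 fold change was -0.32 (SE 0.0396, adjusted p = 3.9e-14, edgeR) with siRNA.1 and -0.35 (SE 0.0395, adjusted p = 1.05e-17) with siRNA.2, a level of 0.803 and 0.783 times the control. The gene (ENSG00000110092) spans 69641156 to 69654474 of chromosome 11 (GRCh38, plus strand). Its last bases, from 69653076, are shared with LTO1 on the opposite strand, which averaged 5.49 FPKM. Strandedness of the counting is not given in the sources used here, so reads from the shared bases cannot be told apart.

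CCND2, encoding cyclin D2, stayed within the spread of its libraries. It had 11.5, 11.9 and 12.0 FPKM in control cells, 11.3, 11.4 and 11.7 with siRNA.1, and 13.0, 11.3 and 10.7 with siRNA.2. The ranges overlapped in both comparisons. Relative to control, siRNA.1 gave a log2 fold change of -0.07 (95% interval -0.18 to 0.04, adjusted p = 0.386) and siRNA.2 gave -0.03 (-0.14 to 0.08, adjusted p = 0.743).

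CCND3, encoding cyclin D3, differed between the siRNAs. It read 9.70, 12.1 and 10.3 FPKM in control cells, 13.0, 12.3 and 12.8 with siRNA.1, and 10.5, 10.7 and 10.5 with siRNA.2. The siRNA.1 libraries lay above every control and every siRNA.2 library, while siRNA.2 fell within the control range. CCND3 rose with siRNA.1 by a log2 fold change of 0.22 (SE 0.0645, adjusted p = 0.00283), and with siRNA.2 the value was -0.03 (95% interval -0.16 to 0.10, adjusted p = 0.807). Without control replicate 1 the siRNA.1 value no longer passed (adjusted p = 0.0821). The control libraries of CCND3 had a coefficient of variation of 11.5%, where counting alone would give 3.16%.

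Together these shifts changed the makeup of the D-type cyclin pool. The summed FPKM of the 3 genes was 135 ± 2.52 in control cells, 117 ± 1.15 under siRNA.1 and 111 ± 2.08 under siRNA.2, and control and siRNA libraries did not overlap. The CCND1 share of that sum was 83.4% ± 1.21, 79.3% ± 0.208 and 80.0% ± 1.36. The CCND3 share was 7.90% ± 0.968, 10.9% ± 0.30 and 9.49% ± 0.117, and the CCND2 share 8.72% ± 0.38, 9.82% ± 0.117 and 10.5% ± 1.25. CCND1 kept the largest share in all 9 libraries. These shares are descriptions of the same values, rest on the deposited exonic lengths and carry no test of their own.

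**Figure D2:**
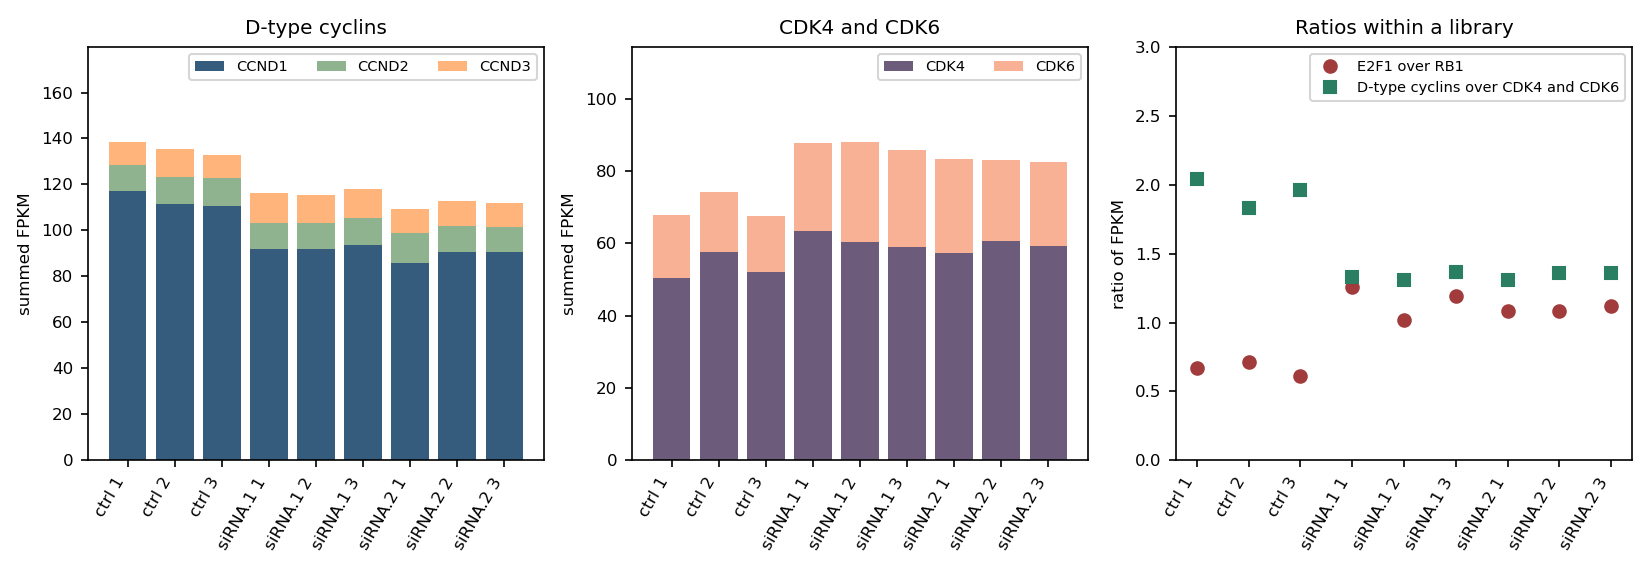
Summed FPKM of the D-type cyclins (left) and of CDK4 and CDK6 (middle) as stacked bars from 0 for each library, and the ratio of FPKM within each library (right) for E2F1 over RB1 (circles) and for D-type cyclins over CDK4 and CDK6 (squares). The E2F1 over RB1 ratio is 0.611 to 0.716 in control libraries and 1.02 to 1.26 with the siRNAs, and the cyclin over kinase ratio is 1.83 to 2.04 in control libraries and 1.31 to 1.37 with the siRNAs.

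CDK6, a catalytic partner of the D-type cyclins, had the largest change among the members with each siRNA. Its FPKM was 17.4, 16.4 and 15.7 in control cells, 24.5, 27.7 and 27.0 with siRNA.1, and 26.0, 22.4 and 23.1 with siRNA.2. The lowest siRNA library was well above the highest control library. CDK6 rose by a log2 fold change of 0.65 (SE 0.0444, adjusted p = 1.76e-46) with siRNA.1 and 0.52 (SE 0.0442, adjusted p = 2.94e-30) with siRNA.2, or 1.57 and 1.44 times the control level. The gene (ENSG00000105810) spans 92604921 to 92836573 of chromosome 7 on the minus strand. With siRNA.1 it was the only tested member whose call also reached a fold of 1.5, and with siRNA.2 no member did.

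CDK4, the other catalytic partner, moved less. It had 50.6, 57.7 and 52.0 FPKM in control cells, 63.4, 60.3 and 58.9 with siRNA.1, and 57.4, 60.6 and 59.4 with siRNA.2. All siRNA.1 libraries were above the controls, whereas the lowest siRNA.2 library fell just below control replicate 2. CDK4 rose by 0.16 (SE 0.0481, adjusted p = 0.0039) with siRNA.1 and 0.14 (SE 0.0478, adjusted p = 0.0171) with siRNA.2 on the log2 scale. These calls depended on single libraries. With siRNA.1 the adjusted p reached 0.063 when a library was left out, the call being lost without control replicate 1 or siRNA.1 replicate 1. With siRNA.2 it reached 0.16, the call being lost without control replicate 1 or 3 or siRNA.2 replicate 2 or 3. CDK4 shares bases with TSPAN31 (3.65 FPKM) and MARCHF9 (5.13 FPKM) on the opposite strand.

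The CDK4 and CDK6 sum was 69.9 ± 3.64 FPKM in control cells, 87.2 ± 1.16 with siRNA.1 and 83.0 ± 0.50 with siRNA.2. The CDK6 share of it was 23.6% ± 1.79, 30.2% ± 2.02 and 28.7% ± 2.19. With CCND1 lower and CDK4 and CDK6 higher, the ratio of D-type cyclin to CDK4 and CDK6 FPKM was 1.94 ± 0.106 in control cells and 1.34 with each siRNA (SD 0.0306 and 0.0289). The CCND1 over CDK6 ratio was 6.86 ± 0.151, 3.51 ± 0.225 and 3.76 ± 0.401. For each of these sums, shares and ratios the control and siRNA libraries did not overlap.

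RB1, the pocket protein gene, fell with both siRNAs. Its FPKM was 20.6, 20.8 and 21.8 in control cells, 15.3, 18.0 and 16.7 with siRNA.1, and 17.3, 16.2 and 16.6 with siRNA.2. The groups did not overlap. The log2 fold change was -0.37 (SE 0.0538, adjusted p = 9.87e-11) with siRNA.1 and -0.35 (SE 0.0532, adjusted p = 8.14e-10) with siRNA.2, or 0.773 and 0.785 times the control level. The gene (ENSG00000139687) spans 48303744 to 48599436 of chromosome 13 on the plus strand. LPAR6 and RCBTB2, on the opposite strand within the RB1 span, had 858 and 500 counts over all libraries against 18641 for RB1.

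E2F1, the activator that RB1 restrains, rose with both. It had 13.8, 14.9 and 13.3 FPKM in control cells, 19.2, 18.4 and 19.8 with siRNA.1, and 18.6, 17.5 and 18.7 with siRNA.2. Every siRNA library exceeded every control library. The log2 fold change was 0.42 (SE 0.0751, adjusted p = 1.99e-07) with siRNA.1 and 0.37 (SE 0.0743, adjusted p = 5.43e-06) with siRNA.2, or 1.34 and 1.29 times the control level. The gene (ENSG00000101412) spans 33675477 to 33686385 of chromosome 20 on the minus strand. The ratio of E2F1 to RB1 FPKM was 0.666 ± 0.0527 in control cells, 1.16 ± 0.123 with siRNA.1 and 1.09 ± 0.0231 with siRNA.2. On the FPKM scale E2F1 was thus below RB1 in every control library and above it in every siRNA library. That crossing rests on the deposited exonic lengths, 2690 bases for E2F1 and 6434 for RB1. In counts E2F1 stayed below RB1 in every library, at most 1134 against at least 1743.

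The E-type cyclins, which activate CDK2, showed no change that passed the test. CCNE1 had 4.45, 4.14 and 4.29 FPKM in control cells, 3.55, 4.15 and 3.91 with siRNA.1, and 4.88, 3.66 and 4.57 with siRNA.2. CCNE2 had 2.00, 2.86 and 2.03, then 2.07, 2.62 and 1.98, then 2.10, 2.57 and 2.67. All ranges overlapped. For CCNE1 the estimate was -0.18 on the log2 scale with siRNA.1 (95% interval -0.46 to 0.10, adjusted p = 0.383) and 0.02 with siRNA.2 (-0.26 to 0.29, adjusted p = 0.961). For CCNE2 it was -0.08 (-0.36 to 0.21, adjusted p = 0.761) and 0.09 (-0.19 to 0.36, adjusted p = 0.718). These are the tested members with the fewest reads, 135 to 265 counts per library for CCNE2, and the CCNE1 interval for siRNA.1 takes in a change as large as that of RB1. CCNE2 also shares bases with INTS8, which had 9916 counts over all libraries against 1647 for CCNE2, and with NDUFAF6 (1934 counts), both on the opposite strand.

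**Figure D3:**
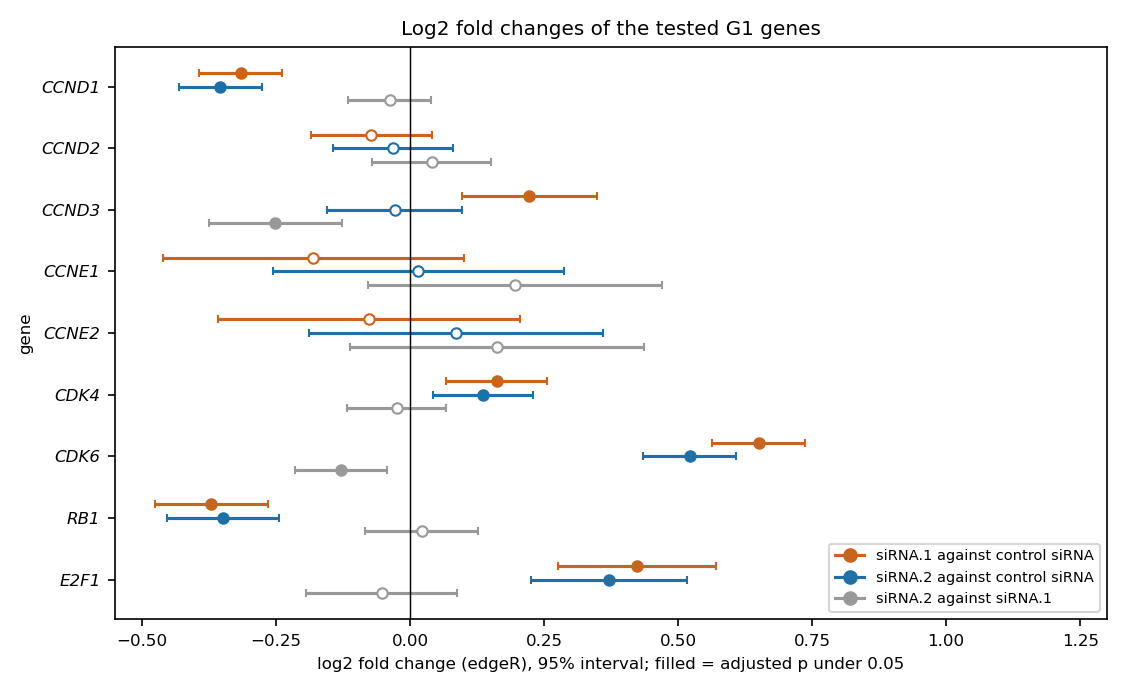
Log2 fold changes (x axis, edgeR) with 95% intervals for the 9 tested members (y axis), for siRNA.1 and siRNA.2 against control siRNA and for siRNA.2 against siRNA.1, with filled points for an adjusted p under 0.05. CDK6 has the highest values against control (0.65 and 0.52), CCND1 and RB1 lie between -0.37 and -0.32, and the intervals of CCND2, CCNE1 and CCNE2 include 0.

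CDKN2A was nearly silent in these cells. It had 4 counts in all 9 libraries together, none in the control libraries, and at most 1 in any library, so it did not pass the filter and no fold is given. A count of 0 allows up to 3 counts per library, which for this gene is 0.0342 to 0.0503 FPKM depending on the library, a limit that covers counting error only. The gene spans 21967752 to 21995301 of chromosome 9 (GRCh38, minus strand). CDKN2B, which encodes the related inhibitor p15INK4B and begins 7602 bases away, had 5 counts over all libraries and at most 2 in any.

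Low counts were shared by part of the neighbourhood, which was examined after the CDKN2A values had been seen. Of the 22 other protein-coding genes within 1000000 bases, 12 were at 0 counts in every library, interferon alpha genes among them, which are usually off without induction, and 15 had 3 counts or fewer in every library. MTAP, the methylthioadenosine phosphorylase gene 30101 bases away on the other side, had 7.19 FPKM in control cells and 18852 counts in all. KLHL9 and FOCAD, farther in the same direction, had 5.06 and 3.70 FPKM. Past CDKN2B on the opposite side, DMRTA1 had 0.20 FPKM. Of the 6 neighbours tested, 2 were higher and 0 lower with each siRNA, where 30.2% and 30.9% of all genes were called. IFNB1, with 95 counts in all, rose by 2.64 and 3.51 on the log2 scale (adjusted p = 0.00795 and 6.39e-05, edgeR). MTAP rose by 0.148 and 0.265 (adjusted p = 0.0244 and 6.75e-06, edgeR). The state of the DNA at this locus was not measured here.

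**Figure D4:**
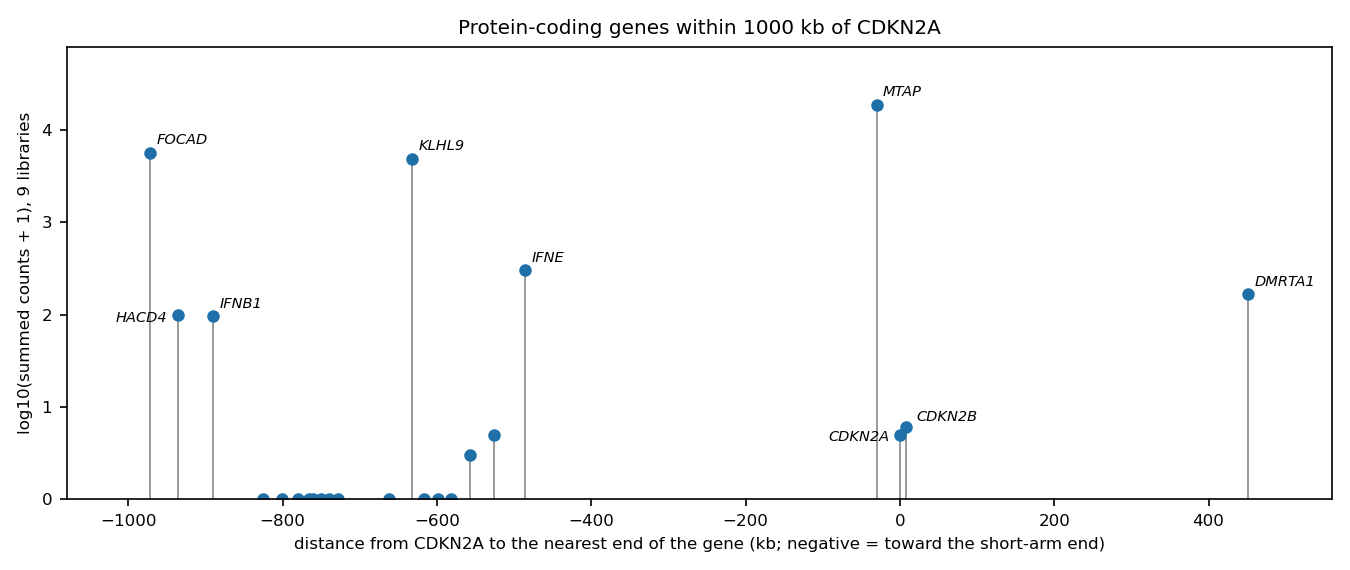
Summed counts over the 9 libraries, as log10(counts + 1) on the y axis, of protein-coding genes by their distance from CDKN2A in kilobases (x axis, 0 at CDKN2A). CDKN2A and CDKN2B have 4 and 5 counts, MTAP has 18852, and 12 genes lie at 0.

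The siRNAs were also set against each other. The log2 difference, siRNA.2 minus siRNA.1, was -0.25 for CCND3 (SE 0.0635, adjusted p = 0.0014, edgeR) and -0.13 for CDK6 (SE 0.0434, adjusted p = 0.0293, edgeR). For CDK6 the libraries overlapped (22.4 to 26.0 FPKM with siRNA.2, 24.5 to 27.7 with siRNA.1), and the call was lost with DESeq2 and without any of 4 libraries (siRNA.1 replicate 2 or 3, siRNA.2 replicate 2 or 3), where the adjusted p reached 0.309. No member was higher, so 2 of 9 were called (22.2%). Over all genes 12.2% were called (6.1% higher and 6.07% lower), and 22.9% of the genes at the depth of the members were. The other 7 members gave differences of -0.05 to 0.20, with adjusted p from 0.452 to 0.885.

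The wider G1/S network was described with a list of 42 genes that holds none of the 10 members, of which 41 were tested. Under siRNA.1 the calls were 10 higher and 8 lower, with 23 not called (43.9% called), and under siRNA.2 13 higher and 7 lower, with 21 not called (48.8% called). Over all genes 30.2% and 30.9% were called, and 50.9% and 52.1% of those at the depth of the members, so the list's shares did not exceed the latter. On rescaled FPKM (limma, FPKM set to the same sum in every library) the split was 14 higher and 3 lower for siRNA.1 and 14 and 4 for siRNA.2. In edgeR, of the 41 tested, 9 were higher and 4 lower with both siRNAs, where 21.2% of all genes were called in the same direction with both. The list's median log2 fold change was 0.0062 and 0.024, beside -0.00053 and 0.004 over all genes.

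Among the CDK inhibitors, none was higher, and 2 of 5 tested were lower with siRNA.1 and 3 with siRNA.2, where 15.2% and 15.1% of all genes were lower. CDKN2C, which encodes the CDK4 and CDK6 inhibitor p18INK4C, fell by 0.73 (adjusted p = 0.00919) and 0.74 (adjusted p = 0.00642) on the log2 scale, its mean FPKM being 1.56 (control), 0.96 (siRNA.1) and 0.943 (siRNA.2). CDKN1A, encoding p21, fell by 0.26 (adjusted p = 6.52e-07) and 0.27 (adjusted p = 1.19e-07), from 66.5 to 56.6 and 55.5 FPKM. CDKN1B, encoding p27, gave 0.01 (adjusted p = 0.93) and -0.05 (adjusted p = 0.656). The pocket proteins that share RB1's fold moved apart: RBL2 (p130) fell by 0.46 and 0.41 (adjusted p = 1.16e-08 and 1.43e-07), whereas RBL1 (p107) rose by 0.18 and 0.24 (adjusted p = 0.0301 and 0.00122).

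Of 9 other E2F and DP genes, 2 were higher and 2 lower with siRNA.1, and 3 were higher with siRNA.2 (44.4% and 33.3% called, where 30.2% and 30.9% of all genes were). E2F3, an activator like E2F1, rose by 0.29 and 0.26 (adjusted p = 0.000456 and 0.00147), and TFDP1, the DNA-binding partner of E2Fs, by 0.13 and 0.19 (adjusted p = 0.0191 and 0.000491). E2F4, mainly a repressor, gave 0.07 with siRNA.1 (adjusted p = 0.368) and rose by 0.24 with siRNA.2 (adjusted p = 3.03e-05). Of 8 genes for CDK2, its cyclins and activators, 2 were higher and 1 lower with siRNA.1, and 3 were higher with siRNA.2 (37.5% called with each). CDK2, the partner of the E-type cyclins, fell by 0.14 with siRNA.1 (adjusted p = 0.026) and gave 0.02 with siRNA.2 (adjusted p = 0.797). CDC25A, the phosphatase that activates CDK2, rose from 16.8 to 28.0 and 24.7 FPKM, by 0.71 and 0.54 (adjusted p = 1.51e-32 and 1.42e-19). CCNA1, the germline-type cyclin A, falls outside the naming rule and was singled out after its values were seen. It averaged 1.46 FPKM in control cells, 1.40 with siRNA.1 and 3.55 with siRNA.2, a log2 fold change of -0.08 (adjusted p = 0.845) and 1.27 (adjusted p = 2.95e-09), and the siRNAs differed by 1.35 (adjusted p = 1.14e-09).

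Upstream of the cyclins, MYC, the mitogen-responsive transcription factor, rose from 45.1 to 82.8 and 80.7 FPKM, by 0.85 and 0.83 on the log2 scale (adjusted p = 3.07e-83 and 5.05e-80). Among 10 genes for turnover of cyclins and inhibitors, RBX1, the RING subunit of cullin ligases, rose by 0.36 and 0.43, and the F-box genes FBXO31 and FBXW7, whose products recognize cyclin D1 and cyclin E, rose by 0.38 and 0.30 and by 0.29 and 0.30. GSK3B, a kinase that marks cyclin D1 for export and degradation, fell by 0.23 and 0.32. Of 6 MuvB and MYB genes, 1 was higher and 0 lower with siRNA.1 (16.7% called). With siRNA.2, 1 was higher and 1 lower (33.3% called). The gene higher with both was LIN9, which encodes a core subunit of the MuvB complex and rose by 0.50 and 0.46. The genes named in this paragraph all passed the threshold with both siRNAs.

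**Figure D5:**
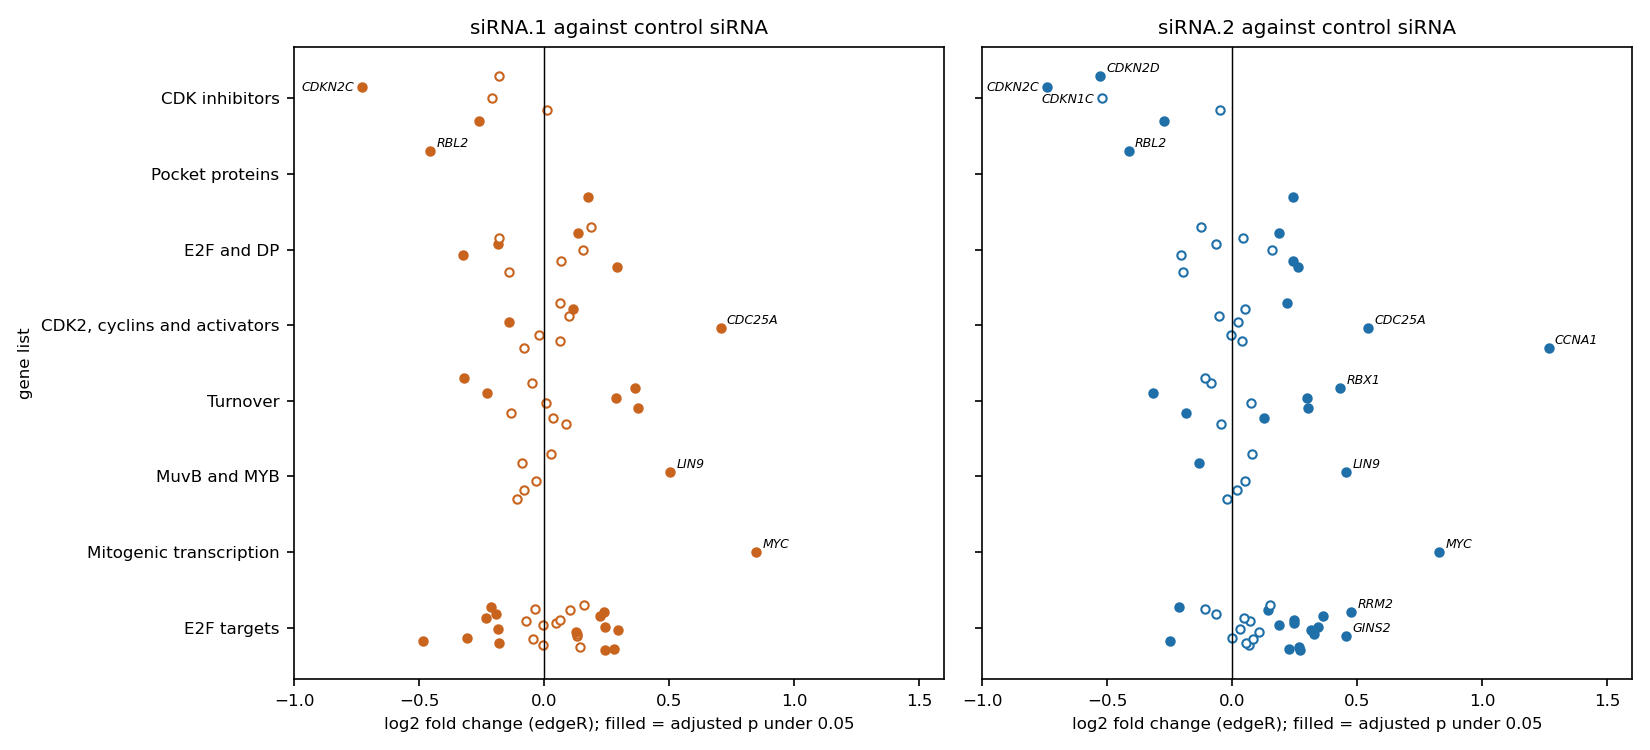
Log2 fold changes (x axis, edgeR) of the tested G1/S network genes by sublist and of 26 E2F target genes (y axis), for siRNA.1 (left) and siRNA.2 (right) against control siRNA, with filled points for an adjusted p under 0.05 and symbols for network genes beyond 0.4 in size and E2F targets above 0.4. MYC and CDC25A lie far to the right in both panels (0.85 and 0.71, then 0.83 and 0.54), CCNA1 lies farthest to the right with siRNA.2 (1.27), and CDKN2C lies far to the left in both (-0.73 and -0.74).

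The genes that E2F factors switch on for S phase were set beside E2F1. All 26 on the list were tested. With siRNA.1, 7 were higher and 7 lower (53.8% called), with a median log2 fold change of 0.056. With siRNA.2, 13 were higher and 2 lower (57.7% called), with a median of 0.15. The share called was near that of genes at the depth of the members (50.9% and 52.1%). The even split for siRNA.1 depended on the scaling: it was 11 higher and 6 lower with library totals only, 9 and 4 with limma on log2(FPKM + 0.1), and 13 and 2 with limma on rescaled FPKM. For siRNA.2 these gave 14 and 2, 14 and 0, and 17 and 0. In edgeR, 6 of the 26 were higher and 2 lower with both siRNAs, where 21.2% of all genes were called in the same direction with both. RRM2, a subunit of ribonucleotide reductase, rose by 0.24 and 0.48, MCM3, part of the replicative helicase, by 0.30 and 0.32, and PRIM1, the primase subunit, by 0.23 and 0.36. TYMS, thymidylate synthase, fell by 0.21 with each siRNA, its siRNA.2 libraries overlapping the controls.

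Between the siRNAs E2F1 itself gave a difference of -0.05 (adjusted p = 0.751). The E2F targets were also counted in this direct comparison, a count that was not planned. Of the 26, 11 were higher under siRNA.2 and 0 were lower, with a median of 0.13. That is 42.3% called, where 12.2% of all genes and 22.9% of those at the depth of the members were. RRM2 is among the 11, with a log2 difference of 0.24 (adjusted p = 1.8e-06). Limma on FPKM called 8 higher and 0 lower, and limma on rescaled FPKM 6 and 0.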

How the data were processed

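Per the labels, poly(A)+ RNA of TE13 cells was sequenced on an Illumina system. The authors deposited raw counts per gene, made with FastQC, STAR on GRCh38 and featureCounts, and FPKM, per kilobase of the deposited exonic length and per total counts on genes. Versions, annotation release and strandedness are not given in the sources used here. The depth of each library is given with the results, and 95% intervals follow the spread between libraries. The paper speaks of 3 experimental repeats for these data, without saying whether they were separate cultures, so p-values measure the spread between these libraries, which may be technical. Replicate libraries differed by more than counting noise.

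Genes averaging 0.1 FPKM or more across the 9 libraries had their counts tested with edgeR 4.0.16 (TMM, quasi-likelihood, a single fit of 3 conditions, no covariates, Benjamini-Hochberg over all 21397 genes tested, threshold 0.05) in R 4.3.3. Standard errors were obtained as the size of the log2 fold change over the square root of F. Alternatives were DESeq2 1.42.0, limma 3.58.1 on log2(FPKM + 0.1), with 1 or 0.01 in place of 0.1, other size factors, other filters, a fold of at least 1.5, the replicate number as a block, only the 2 conditions compared, and each library left out. Chosen after seeing the data were FPKM rescaled to equal sums and a fit without mitochondrial genes. The count of E2F targets called between the siRNAs was not planned either. The fit was tested on simulated data.

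The members and lists were chosen with earlier results of these data known, the lists from recall. Beside the members and CDKN1A, CDKN1B, CDK2 and E2F4, up to 3 genes per sublist and direction are named, those called the same way with both siRNAs at 1 FPKM or more on average with the largest mean log2 fold change, and 1 gene that this rule names is not reported here. The pattern of library values was compared by Pearson r of log2 CPM for CCND1, CCNE2 and E2F1. Protein sequences were not analysed here. Figures were drawn with matplotlib 3.10.9.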

Additional observations from a re-analysis of the deposited data

Results flagged for a closer look

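CCND3 and CDK6 differed between the siRNAs by the direct test in edgeR. For CCND3 the log2 value of siRNA.2 minus siRNA.1 was -0.2513 (10.6 ± 0.0896 against 12.7 ± 0.376 FPKM, SD, n = 3, adjusted p = 0.0014), and the libraries did not overlap. For CDK6 it was -0.1286 (23.9 ± 1.92 against 26.4 ± 1.67 FPKM, adjusted p = 0.0293), and the libraries overlapped. Groups of 3 libraries are too small for the test of single outlying libraries.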

How the results depend on the processing

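CCND1, CDK6, RB1 and E2F1 kept direction and call against control in all 13 other settings and with each of 9 libraries left out. Requiring a fold of at least 1.5 left 1 member with siRNA.1 and 0 with siRNA.2, 0 shared by both, 0 between the siRNAs, 3 network genes with each siRNA and 0 E2F targets in any comparison. Of the 2 members called between the siRNAs, 1 was called with DESeq2, without a filter, with rescaled FPKM and with the replicate block, 0 with limma on FPKM at pseudocounts of 0.1, 1 and 0.01, and 1 to 2 with a library left out. The replicate block changed no call on a member against control. Same-numbered libraries deviated with correlations of -0.134 to 0.0533, and differently numbered ones with -0.0576 to 0.128. No shared effect of the replicate number was seen, but whether the numbers mark matched runs is not given in the sources used here. With limma on FPKM the CDK4 call with siRNA.2 was lost (adjusted p up to 0.0679), as was that of CCND3 between the siRNAs (up to 0.0689). Of all calls, 49.7% and 51.2% were higher with siRNA.1 and siRNA.2 in edgeR, 57.1% and 54.2% with limma on log2(FPKM + 0.1), and 73.3% and 66.2% with limma on rescaled FPKM, where the median of all genes was 0.1 and 0.075 (log2) in place of 0.021 and 0.019. E2F targets called between the siRNAs went from 11 to 8 with limma and to 6 with limma on rescaled FPKM. The last also reversed values that were never called: CCND2 (0.0416, 0.0371 and, between the siRNAs, -0.00449), CCND3 with siRNA.2 (0.0482), CCNE2 with siRNA.1 (0.046) and RB1 between the siRNAs (-0.0182). Leaving out a library gave ranges across 0 for CCND2 with siRNA.2 (-0.106 to 0.0235) and between the siRNAs (-0.0342 to 0.0957), CCND3 with siRNA.2 (-0.0923 to 0.0639), CCNE1 with siRNA.2 (-0.056 to 0.121), CCNE2 with siRNA.1 (-0.20 to 0.107) and siRNA.2 (-0.000218 to 0.267), and, between the siRNAs, CDK4 (-0.0485 to 0.0088) and RB1 (-0.034 to 0.0767). The causes were not tested. Without a filter 18.3% and 18.8% of 32991 genes were called with siRNA.1 and siRNA.2, and at a mean of at least 1 FPKM 46.4% and 47.2% of 12532. Depth limits CCNE1, CCNE2 and CDKN2A most.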

Other observations

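The genes around CCND1 did not move as a block with it. Of 20 other protein-coding genes within 1000000 bases, 14 were tested, of which 4 were higher and 1 lower with siRNA.1, and 6 were higher and 0 lower with siRNA.2, where 30.2% and 30.9% of all genes were called. GAL, encoding galanin, rose most, by 0.78 and 0.87 (adjusted p = 6.7e-30 and 8.29e-38, edgeR). CTTN, encoding cortactin, had 49.5 FPKM in control cells and rose by 0.23 with each siRNA (adjusted p = 2.27e-07 and 1.75e-07, edgeR), opposite to CCND1. ANO1, a chloride channel gene at 24.6 FPKM, fell by 0.35 with siRNA.1 (adjusted p = 1.01e-10) and rose by 0.17 with siRNA.2 (adjusted p = 0.00313). MYEOV, at 13.8 FPKM, gave -0.03 and 0.07 and was not called. These genes were examined and named after the CCND1 values had been seen.

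In the pattern over the 9 libraries, compared among 11833 genes, SDCBP2 (Pearson r = 0.992), FRMD8 (0.989) and LASP1 (0.986) were most like CCND1. LINC02577 (0.988), RBM25 (0.988) and CCL3L1 (0.987) were most like E2F1, CCL3L1 being uncertain because it has near-identical copies. For CCNE2, BET1L (0.943), ZNF692 (0.888) and TNNI3 (0.867) came closest. The libraries share conditions and depth, so these values describe likeness only.

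The deposited annotation assigns 208 genes to the cell cycle pathway, of which 145 were tested. With siRNA.1, 26 were higher and 33 lower (40.7% called), and with siRNA.2, 31 were higher and 24 lower (37.9% called), where 30.2% and 30.9% of all genes and 50.9% and 52.1% of those at the depth of the members were. Of the 145 tested, 20 were higher and 16 lower with both siRNAs, where 21.2% of all genes were called in the same direction with both. Without the 10 members the shares were 39.0% and 36.8%.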
